A study of Mus musculus with 9 samples.

Results

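The genes described here are 9 genes of blood clotting and clot dissolution in mouse lung: F3, F10, F13a1, Tfpi, Thbd, Procr, Plau, Plat and Plaur. They were picked by name, and all 9 were found among the 25526 names of the expression table. The lungs came from 9 mice, 3 given PepNzymeSOD-CAT (the nanozyme group, after a synthetic material with the enzyme-like activities in its name), 3 with a pulmonary fibrosis model and 3 normal. RNA was taken from each mouse separately, and messenger RNA was sequenced. The labels give neither strain, age, sex, the agent that induced fibrosis, the dose nor the day of sampling, and they do not say whether the nanozyme mice also received that agent. Values are FPKM, fragments per kilobase of transcript and scaled to the library's total, which the authors computed. They can be compared between genes. Comparison between libraries depends on the scaling, and the effect of other scalings is given at the end.

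Clotting starts when tissue factor, the product of F3, meets factor VII from plasma and activates factor X. Factor X makes thrombin, thrombin makes fibrin, and factor XIII crosslinks it. Tissue factor pathway inhibitor, thrombomodulin and the endothelial protein C receptor restrain these steps on vessel walls. Plasmin, made from plasminogen by the activators uPA and tPA, then dissolves fibrin, and the uPA receptor holds uPA on cell surfaces. Fibrin deposits in air spaces and low plasmin activity are long-known features of injured and fibrotic lung.

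The tissue was lung by its markers. The summed FPKM of 7 alveolar type 2 markers was 17418 to 30186 in nanozyme, 8597 to 12633 in model and 24312 to 30789 in normal libraries. All 8 hepatocyte markers stayed below 1 FPKM in every library. Libraries within the nanozyme group did not stand together. The summed FPKM of 8 neutrophil markers was 3280 in nanozyme replicate 2, against 1112 and 1340 in nanozyme replicates 1 and 3. It was 2436 to 3140 in the model and 38.2 to 47.4 in the normal libraries. The changes of the 9 genes in nanozyme lung are therefore given with and without replicate 2. That library was singled out from these same data, where it resembled the model libraries. Leaving it out favours larger differences between nanozyme and model lung, though those of Plat and F13a1 became smaller. The adjusted p-values without it are descriptive only. Scgb1a1, the main club cell secretory gene, held 1.16% to 5.37% of the FPKM sum in nanozyme and model libraries and 11.4% to 14.1% in normal ones.

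In model lung, 7 of the 9 genes were higher and 1 was lower than in normal lung. The rises were largest for F10, Procr, Plau and Plaur, and the fall was in Thbd. Over all 14540 genes tested, limma called 17.4% higher and 22.7% lower at an adjusted p under 0.05, 40.1% in all. The median log2 change of the 9 genes was 1.40, beside -0.12 for all genes tested. All 9 genes passed the filter on low values, an FPKM of at least 1 in at least 3 libraries. Log2 changes are on the log2(FPKM + 1) scale, which understates changes of low genes, and each is given ± SE with an adjusted p from limma.

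**Figure D1:**
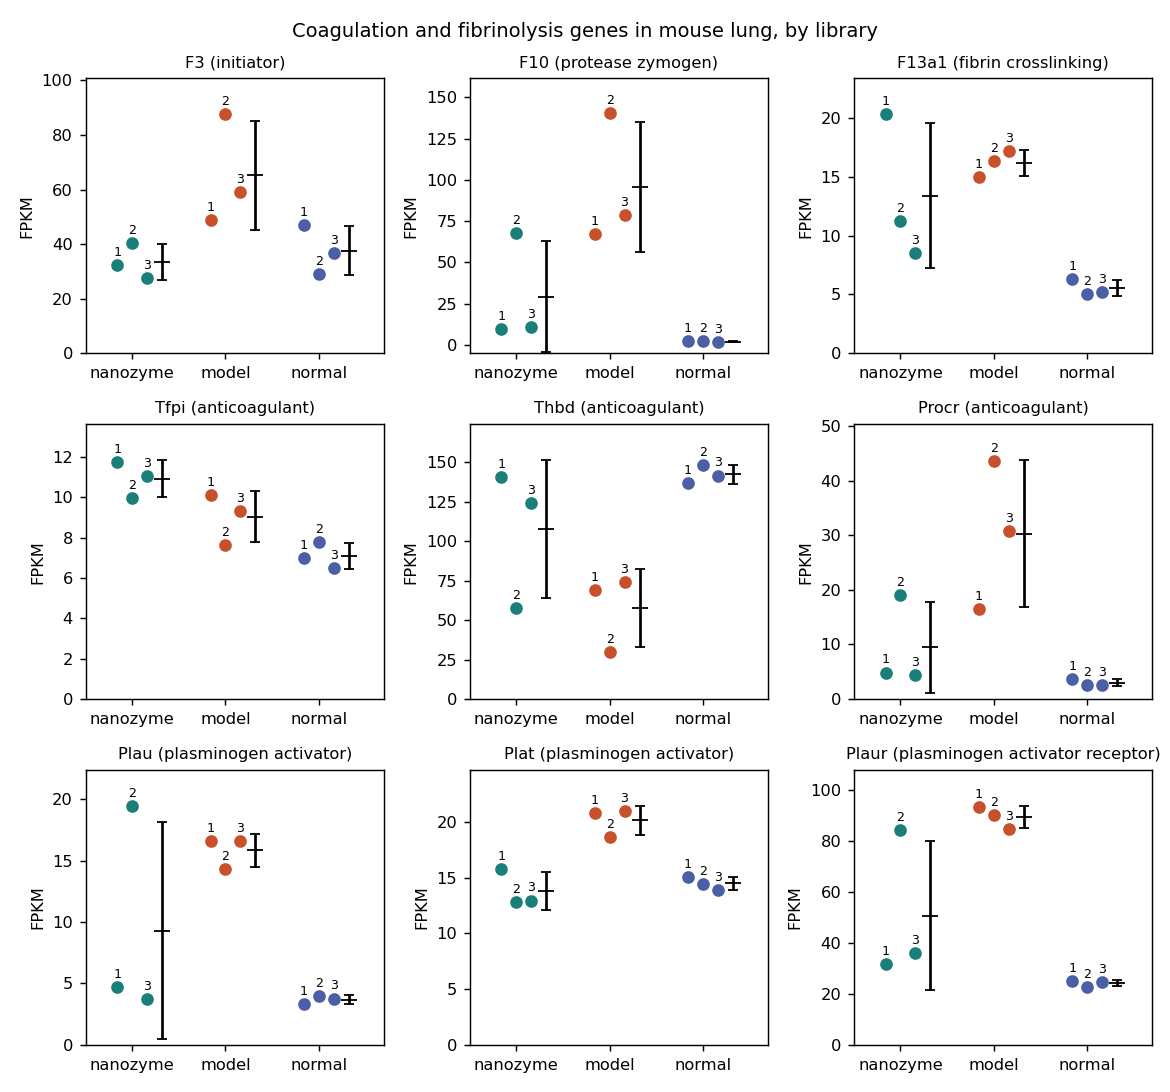
FPKM of each gene (vertical axes, linear) in the 3 nanozyme, 3 model and 3 normal libraries. Dots are libraries with their replicate number, and black bars are mean ± SD (n = 3). Nanozyme replicate 2 lies near the model libraries for F10, Plau and Plaur, where replicates 1 and 3 lie closer to the normal ones. For F10 and Plaur, replicates 1 and 3 still lie above every normal library.

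The sequence just before the start of 4 of the genes that rose is shown because 3 of them share a short motif. The stretches come from RefSeq on GRCm38.p6, all on the + strand and written 5′ to 3′. Capitals mark matches to TGANTCA, the core bound by AP-1, a transcription factor made of Jun and Fos proteins. The Procr stretch stops where the GENCODE vM21 annotation starts the gene.
F3, chr3:121723287-121723536: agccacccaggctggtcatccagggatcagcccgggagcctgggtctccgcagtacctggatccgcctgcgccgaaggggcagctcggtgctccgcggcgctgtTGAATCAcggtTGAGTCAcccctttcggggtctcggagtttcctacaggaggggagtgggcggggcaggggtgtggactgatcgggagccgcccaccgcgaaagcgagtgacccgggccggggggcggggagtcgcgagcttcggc
Procr, chr2:155750967-155751116: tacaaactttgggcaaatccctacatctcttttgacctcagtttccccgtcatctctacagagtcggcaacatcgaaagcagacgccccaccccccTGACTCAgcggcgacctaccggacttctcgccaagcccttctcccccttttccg
Plaur, chr7:24462233-24462482: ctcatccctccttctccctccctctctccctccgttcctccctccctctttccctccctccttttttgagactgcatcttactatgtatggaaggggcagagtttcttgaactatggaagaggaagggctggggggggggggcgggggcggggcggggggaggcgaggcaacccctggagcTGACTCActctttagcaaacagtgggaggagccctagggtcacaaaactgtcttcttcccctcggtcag
F10, chr8:13037058-13037307: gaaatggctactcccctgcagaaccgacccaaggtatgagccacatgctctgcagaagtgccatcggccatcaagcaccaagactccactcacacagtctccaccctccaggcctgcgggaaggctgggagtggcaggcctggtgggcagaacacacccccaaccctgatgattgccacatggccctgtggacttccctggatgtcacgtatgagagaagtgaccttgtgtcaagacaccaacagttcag

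Windows of 250 bases before the RefSeq start were at hand for 6 of the 9 genes, 8 windows in all because Tfpi and F13a1 have a pair each. The search read both strands. The AP-1 motif was found in 3 of these genes, each with 1 window, so in 3 of the 8 windows. It stood in 6.75% of all 32851 windows of this length. F3 held 2 matches, starting 146 and 135 bases before the RefSeq start, Procr held 1 at 154 bases and Plaur held 1 at 69 bases. For Procr the RefSeq start lies beyond the end of the printed stretch. The windows of F10, F13a1 and Tfpi held none. The NF-kB motif was found in 0 of the 8 windows and in 1.41% of all windows. The Sp1 motif GGGCGG had 3 matches each in F3 and Plaur and 1 in each window of Tfpi, and stood in 32.7% of all windows. The KLF motif CACCC, in 52% of all windows, had 3 matches in F3, 2 each in F10, F13a1 and Tfpi and 1 in Procr. The second F3 match to AP-1 shares 2 bases with a KLF match. In Plaur, 2 of the Sp1 matches share 1 base. The motif TATAAA stood in 12.4% of all windows and, among these 8, in 1 window of Tfpi. A match describes the letters only and is no measurement of binding.

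F3 encodes tissue factor, the cell-surface protein that starts clotting (chr3:121723537-121735048 in GENCODE vM21, + strand, protein-coding). It was at 49.0, 87.6 and 59.0 FPKM in the model lungs, against 46.9, 29.0 and 36.6 FPKM in the normal lungs. The lowest model library lay only just above the highest normal one. The change was 0.76 ± 0.25 (adjusted p = 0.0400), the adjusted p closest to the threshold among the genes called. The call ended without model replicate 2 (adjusted p = 0.110) or 3 (0.0712), without normal replicate 2 (0.128) or 3 (0.0994), and without nanozyme replicate 1 (0.0543). It also ended with no filter, quantile normalization or rescaling without the 100 most abundant genes (adjusted p = 0.0564, 0.0703 and 0.0504). A replicate block, given at the end, ended the F3 call too.

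F10 encodes factor X, a protease precursor that the liver supplies to plasma (chr8:13037308-13056676, + strand, protein-coding). It was at 67.2, 140 and 78.9 FPKM in model lungs and at 2.20, 2.22 and 1.57 FPKM in normal lungs. The mean was 47.9 times higher in model lung, and the groups lay far apart (4.94 ± 0.65, adjusted p = 0.00123). In the normal lungs F10 was the lowest of the 9 genes in every library. In model lungs it ranked first in replicate 2, with Plaur first in replicates 1 and 3. Its neighbour F7, encoding factor VII, ends 1498 bases before it with no annotated gene between them. F7 was at 28.8, 30.3 and 25.3 FPKM in model and at 5.54, 6.55 and 6.25 FPKM in normal lungs (2.03 ± 0.36, adjusted p = 0.00393). Both neighbours were thus higher in each model library than in any normal one.

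F13a1 encodes the catalytic subunit of factor XIII, which crosslinks fibrin and is also made by macrophages (chr13:36867178-37050244, - strand, protein-coding). It was at 14.96, 16.3 and 17.2 FPKM in model and at 6.30, 5.06 and 5.18 FPKM in normal lungs. Model libraries were tightly grouped and well above the normal ones (1.40 ± 0.26, adjusted p = 0.00431). A pair of antisense genes overlaps F13a1 on the other strand, and since the strand setting of the counting is not stated, reads of the 3 cannot be told apart.

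White blood cell markers were higher in the same lungs. Among 12 monocyte and macrophage markers, 11 were higher and 0 lower in model lung, beside 17.4% and 22.7% of all genes. Their summed FPKM was 8119 to 11365 in model and 3891 to 4746 in normal libraries. Most of these sums was 1 gene, Lyz2, with a mean of 7887 FPKM in model and 4140 FPKM in normal lung. All 8 neutrophil markers were higher too. Red blood cell markers went the other way, with 5 of 5 tested lower in model lung and sums over 6 markers of 131 to 790 FPKM in nanozyme, 173 to 319 FPKM in model and 3528 to 4252 FPKM in normal libraries. The sums of 8 platelet markers were 50.5 to 116 FPKM in nanozyme, 40.1 to 56.5 FPKM in model and 35.7 to 37.3 FPKM in normal libraries. Of the 7 platelet markers tested, 0 were called in model vs normal, 0 in nanozyme vs model and 1, Pf4, was higher in nanozyme vs normal. No marker of these 4 lists was at 0 in every library. The part of these cells in the changes of F10, F13a1, Plau and Plaur was not tested. In whole tissue, more cells of a type and more RNA per cell cannot be told apart. For F10 and F7, whose plasma proteins come from liver, all 8 hepatocyte markers were below 1 FPKM in every library, and 2 of them were listed at 0 throughout.

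Of the 3 anticoagulant genes of vessel walls, Thbd fell, Procr rose and Tfpi did not pass. Thbd encodes thrombomodulin, which turns thrombin into an activator of protein C (chr2:148404466-148408188, - strand, protein-coding). It was at 69.4, 29.7 and 74.4 FPKM in model lungs and at 137, 149 and 142 FPKM in normal lungs, where it was the most abundant of the 9 genes in every library. All model libraries lay below the normal ones, replicate 2 furthest (-1.39 ± 0.40, adjusted p = 0.0256). The call ended without model replicate 2 (adjusted p = 0.0622) and without normal replicate 1, 2 or 3 (0.0636, 0.0676 and 0.0686).

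Procr encodes the endothelial protein C receptor, which presents protein C to thrombomodulin-bound thrombin (chr2:155751117-155755471, + strand, protein-coding). It went the opposite way to Thbd. Procr was at 16.6, 43.5 and 30.7 FPKM in model lungs, against 3.70, 2.62 and 2.599 FPKM in normal lungs. Its mean was 10.2 times higher (2.89 ± 0.51, adjusted p = 0.00377). The ratio of Procr to Thbd was 0.239, 1.47 and 0.413 in model and 0.0270, 0.0177 and 0.0183 in normal libraries. Procr exceeded Thbd in model replicate 2 and in no other library.

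Tfpi encodes tissue factor pathway inhibitor, which blocks factor X activation (chr2:84432855-84476775, - strand, protein-coding). It was at 10.1, 7.65 and 9.31 FPKM in model and at 6.98, 7.77 and 6.49 FPKM in normal lungs. Model replicate 2 lay inside the normal range, and Tfpi did not pass (0.31 ± 0.13, adjusted p = 0.0825). It passed without model replicate 2 (0.41 ± 0.11, adjusted p = 0.0312), with median-of-ratios scaling (0.0146) and with quantile normalization (0.0222). In all 3 model libraries Tfpi was the lowest of the 9 genes.

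The summed FPKM of 10 endothelial markers was 426 to 896 in model and 1023 to 1217 in normal libraries. By the test 2 of the 10 were lower and 0 higher, beside 22.7% and 17.4% of all genes, and the other 8 did not pass. Model replicate 2, lowest for Thbd, was also lowest for this sum. It was lowest too for the sums of 7 alveolar type 1, 7 alveolar type 2 and 8 fibroblast markers (1283, 8597 and 628 FPKM). Among model libraries it was highest for the monocyte and macrophage sum and the neutrophil sum (11365 and 3140 FPKM). None of the 10 was at 0 in every library. The count of called markers was near that of all genes, but all 10 changes were negative. Their median was -0.76, beside -0.12 for all genes. For 9 of the 10 the model libraries lay below the normal ones without overlap, beside 34.9% of all genes. Without nanozyme replicate 2 in the fit, 5 of the 10 were called lower, beside 26.4% of all genes. Falls were not limited to the endothelial list. With all 9 libraries, 4 of 7 alveolar type 1 and 3 of 7 alveolar type 2 markers were called lower, beside 22.7% of all genes. All changes in these 2 lists were negative, with medians of -0.69 and -0.66. The part of endothelial content in the fall of Thbd was not tested. Procr rose in the same libraries.

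Genes of plasminogen activation rose by unequal amounts. Plau encodes uPA, the activator tied to cell surfaces (chr14:20836660-20843385, + strand, protein-coding). It was at 16.6, 14.3 and 16.6 FPKM in model lungs, against 3.30, 3.9997 and 3.78 FPKM in normal lungs (1.84 ± 0.47, adjusted p = 0.0154). Both groups were narrow and far apart. Without normal replicate 1 the adjusted p was 0.0506. The SE is shared by all 3 groups, and Plau varied most among the nanozyme lungs. With only the model and normal libraries in the fit, its change was 1.84 ± 0.11 (adjusted p = 6.9e-05). The SEs of F10 and Plaur were smaller in that fit too, at 0.27 and 0.091, and those of F3 and Tfpi slightly larger.

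Plaur encodes the uPA receptor (chr7:24462484-24475968, + strand, protein-coding). It was at 93.4, 90.2 and 84.7 FPKM in model and at 25.3, 22.8 and 24.8 FPKM in normal lungs, a narrow range in each group (1.84 ± 0.31, adjusted p = 0.00317). The receptor gene thus stood well above its ligand gene Plau per length in all 6 libraries.

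Plat encodes tPA, the activator released by endothelium (chr8:22757727-22782844, + strand, protein-coding). It was at 20.8, 18.6 and 21.0 FPKM in model and at 15.1, 14.4 and 13.9 FPKM in normal lungs. The shift was small but the groups were separate (0.45 ± 0.11, adjusted p = 0.0121). Its call ended without normal replicate 3 (adjusted p = 0.0516) and with rescaling without the 100 most abundant genes (0.33 ± 0.12, adjusted p = 0.0589). The ratio of Plau to Plat was 0.801, 0.769 and 0.791 in model libraries and 0.219, 0.278 and 0.271 in normal libraries.

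Model and normal libraries did not overlap for 8 of the 9 genes, 7 of them higher and 1 lower. Over all genes tested the groups did not overlap for 58.5%, 23.5% higher and 34.9% lower. The order of levels also differed. In normal libraries, means ran from Thbd through F3, Plaur, Plat, Tfpi, F13a1, Plau and Procr to F10. Only Plau and Procr had ranges that overlapped there. In model libraries the order was F10, Plaur, F3, Thbd, Procr, Plat, F13a1, Plau and Tfpi, and neighbours had overlapping ranges except Plat over F13a1 and Plau over Tfpi.

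Set against the model lungs, the 3 nanozyme lungs gave no call. Limma called 0 of the 9 genes and 0 of all 14540 (0%), while 5 of the 9 and 22.1% of all genes had an unadjusted p under 0.05. Of the 9 changes, 7 were negative and 2, those of Thbd and Tfpi, were positive. The median over the 9 genes was -0.91, beside 0.09 for all genes. Without nanozyme replicate 2, 6 genes were lower and 1 higher, against 9.64% and 12.5% of all genes, 22.1% in all. That library decides the call. Without it the comparison rests on 2 nanozyme lungs, left after a choice made from these same data.

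**Figure D2:**
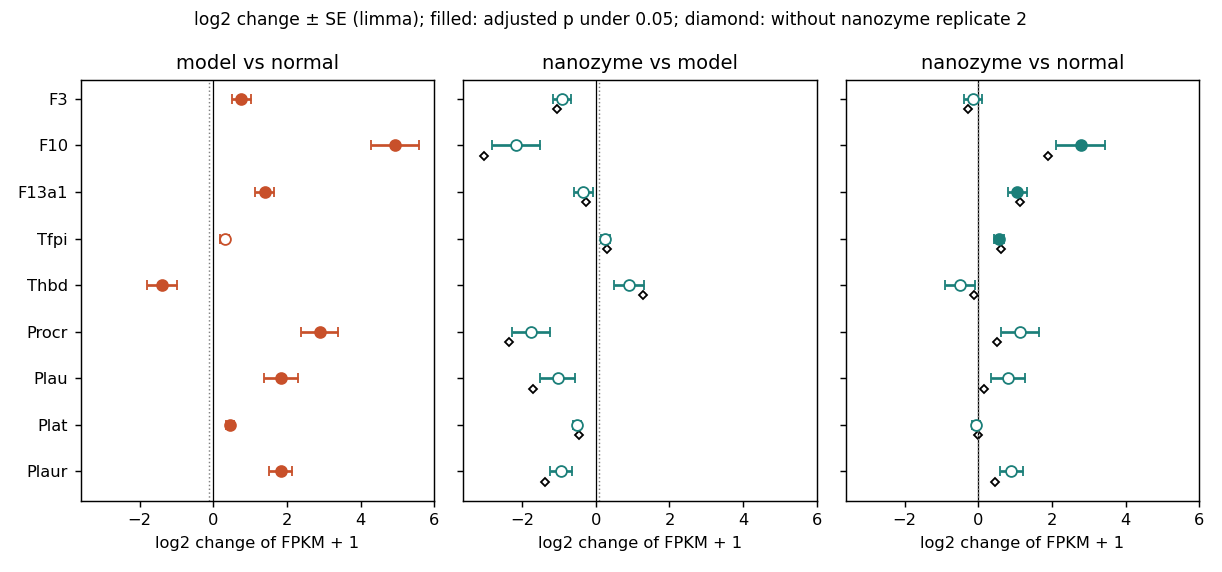
Log2 change of FPKM + 1 (horizontal axes) with SE for each gene in the 3 comparisons, filled where the adjusted p was under 0.05. Diamonds give the change without nanozyme replicate 2, and the dotted line is the median of all genes tested. In nanozyme vs model, F10, Procr, Plau, Plaur and Thbd lie further from 0 without that library, while F13a1 stays near 0.

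Among the clotting genes, F10 was at 9.49, 67.9 and 10.7 FPKM in the nanozyme lungs, beside the 67.2 to 140 FPKM of model lungs. Replicate 2 fell within the model range and the other libraries far below it. The change was -2.17 ± 0.65 (adjusted p = 0.181), and -3.05 ± 0.29 without replicate 2 (adjusted p = 0.000591). F3 was at 32.2, 40.6 and 27.7 FPKM, all below the lowest model library at 49.0 FPKM (-0.91 ± 0.25, adjusted p = 0.181). Without replicate 2 it was called lower (-1.06 ± 0.27, adjusted p = 0.0289). F13a1 was at 20.3, 11.2 and 8.53 FPKM, spread on both sides of the model lungs at 14.96 to 17.2 FPKM. It was not called with replicate 2 (-0.34 ± 0.26, adjusted p = 0.449) or without it (-0.27 ± 0.30, adjusted p = 0.560). Here replicate 1, not 2, was highest.

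Thbd was at 141, 58.0 and 124 FPKM in nanozyme lungs, beside 29.7 to 74.4 FPKM in model lungs. Replicates 1 and 3 lay above every model library and replicate 2 among them (0.90 ± 0.40, adjusted p = 0.235; without replicate 2, 1.29 ± 0.35, adjusted p = 0.0362). Procr was at 4.87, 19.0 and 4.45 FPKM, beside 16.6 to 43.5 FPKM in model lungs. Its change was -1.76 ± 0.51 (adjusted p = 0.181), and -2.37 ± 0.35 without replicate 2 (adjusted p = 0.00343). Tfpi was at 11.8, 9.95 and 11.1 FPKM, beside 7.65 to 10.1 FPKM, and was called neither with replicate 2 (0.25 ± 0.13, adjusted p = 0.266) nor without it (0.31 ± 0.14, adjusted p = 0.142).

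Plau was at 4.68, 19.5 and 3.72 FPKM in nanozyme lungs, beside 14.3 to 16.6 FPKM in model lungs. Replicate 2 held the highest Plau value of all 9 libraries (-1.04 ± 0.47, adjusted p = 0.236; without replicate 2, -1.70 ± 0.13, adjusted p = 0.000375). Plaur was at 31.7, 84.5 and 35.9 FPKM, and its highest value lay just under the lowest model value of 84.7 FPKM. The change was -0.95 ± 0.31 (adjusted p = 0.182), and -1.38 ± 0.10 without replicate 2 (adjusted p = 0.000324). Plat was at 15.8, 12.8 and 12.9 FPKM, below the model range of 18.6 to 21.0 FPKM in every nanozyme library, replicate 2 included. It did not pass either (-0.51 ± 0.11, adjusted p = 0.181), but did without replicate 2 (-0.46 ± 0.11, adjusted p = 0.0265). The change of Plat was smaller there, while limma called 3216 genes in all instead of 0.

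For F3, Plat and Plaur the nanozyme and model libraries did not overlap, with the nanozyme libraries lower. That is 3 of the 9 genes, beside 5.83% of all genes lower without overlap and 16.4% in either direction. In nanozyme replicate 2 the ratio of Plau to Plat was 1.52, the highest of the 9 libraries, against 0.297 and 0.287 in nanozyme replicates 1 and 3. The sums of the endothelial markers were 1202, 798 and 1249 FPKM in nanozyme replicates 1 to 3, beside 426 to 896 FPKM in model libraries. Limma called 0 of the 10 against model lung, and 4 higher without replicate 2, beside 12.5% of all genes. This was not limited to the endothelial list. Without replicate 2, 6 of 7 alveolar type 1 and 3 of 7 alveolar type 2 markers were called higher, and 0 with it. The sums of monocyte and macrophage markers were 6441, 10962 and 7040 FPKM, highest in replicate 2 like those of the neutrophil list. Lyz2, with a mean of 7351 FPKM in nanozyme lung, again made up most of the monocyte and macrophage sums. The part of these cells in the differences was not tested. The 2 comparisons with model lung share the model libraries, so their opposite signs are not independent.

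The place of each nanozyme library was then read on a scale where the normal mean is 0% and the model mean 100%, for the 8 genes called in model lung. Replicate 2 lay at 50% or more for 6 of the 8, with a median of 86.4%. Its exceptions were F3 at 17.8% and Plat at -37.5%. Replicate 3 reached 50% for 0 genes, with a median of 14.96%, and replicate 1 for 1 gene, with a median of 20.1%. That gene was F13a1, at 122%. F10 stood at 36.7% in replicate 1 and 40.0% in replicate 3. F3 lay on the far side of the normal mean in both, at -24.7% and -52.0%. The normal libraries themselves ran from -43.6% to 44.7% for F3, so these places are about as wide as the normal spread. Plau in replicate 3 stood at 0.532% and Thbd in replicate 1 at 1.22%, both next to the normal mean.

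**Figure D3:**
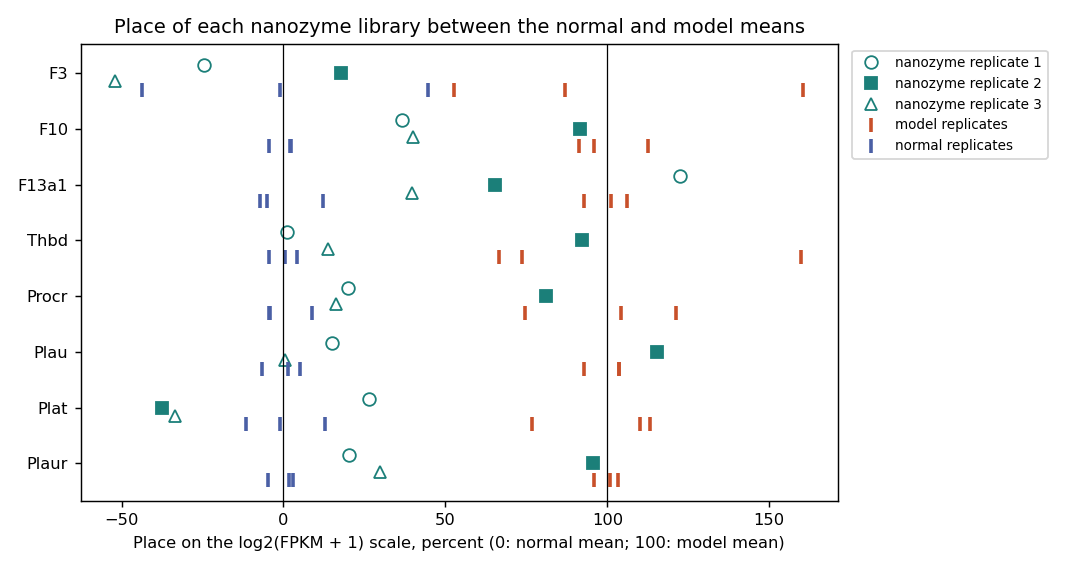
Place of the 3 nanozyme libraries on the log2(FPKM + 1) scale in percent (horizontal axis), with 0 at the normal mean and 100 at the model mean, for the 8 genes called in model vs normal. Ticks are the model and normal libraries. Replicate 2 (filled squares) lies at 81.2% to 115% for F10, Thbd, Procr, Plau and Plaur, and at -37.5% for Plat.

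Nanozyme lungs differed from normal lungs in fewer of the genes. F10, F13a1 and Tfpi were higher and 0 genes were lower, beside 8.39% and 5.5% of all genes, 13.9% in all. F10, at 9.49, 67.9 and 10.7 FPKM in nanozyme lungs, was above the 1.57 to 2.22 FPKM of normal lungs in each library (2.77 ± 0.65, adjusted p = 0.0272). Without replicate 2 the change was smaller but still passed (1.90 ± 0.29, adjusted p = 0.00569). F13a1 was also above normal in each library (1.06 ± 0.26, adjusted p = 0.0302; without replicate 2, 1.13 ± 0.30, adjusted p = 0.0438). Tfpi, at 9.95 to 11.8 FPKM in nanozyme and 6.49 to 7.77 FPKM in normal lungs, was called here although it was not in model lung (0.56 ± 0.13, adjusted p = 0.0228; without replicate 2, 0.62 ± 0.14, adjusted p = 0.0254). The nanozyme vs model difference of Tfpi itself did not pass. Without replicate 2, 4 genes were higher and 0 lower than in normal lung, beside 9.31% and 4.26% of all genes, 13.6% in all.

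These 3 calls depended on single libraries. F10 ended without normal replicate 1, 2 or 3 (adjusted p = 0.0861, 0.0596 and 0.0964), as did F13a1 (0.0762, 0.0790 and 0.104). Tfpi ended without nanozyme replicate 1 or 3 (0.0660 and 0.0604), without normal replicate 1 or 3 (0.0863 and 0.0995), and with rescaling without the 100 most abundant genes (0.0603). With only the nanozyme and normal libraries in the fit, F10 and F13a1 ended too (adjusted p = 0.0566 and 0.0659).

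The other 6 genes did not pass against normal lung. Procr (1.13 ± 0.51, adjusted p = 0.177) and Plaur (0.89 ± 0.31, adjusted p = 0.0920) were higher in each nanozyme library than in any normal one. Without replicate 2 the change of Procr was 0.52 ± 0.35 (adjusted p = 0.378). Plaur passed without replicate 2 (0.46 ± 0.10, adjusted p = 0.0248). The remaining nanozyme libraries were at 31.7 and 35.9 FPKM, beside the normal range of 22.8 to 25.3 FPKM. Plau had a change of 0.81 ± 0.47 (adjusted p = 0.288), and 0.14 ± 0.13 without replicate 2 (adjusted p = 0.542). Thbd (-0.50 ± 0.40, adjusted p = 0.454), F3 (-0.15 ± 0.25, adjusted p = 0.735) and Plat (-0.07 ± 0.11, adjusted p = 0.725) overlapped with the normal libraries. Without replicate 2 their changes were -0.10 ± 0.35 for Thbd, -0.29 ± 0.27 for F3 and -0.016 ± 0.11 for Plat (adjusted p = 0.890, 0.534 and 0.951). In all, 5 genes did not overlap, each higher in nanozyme lung, beside 22.1% of all genes higher without overlap and 42.9% in either direction.

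Spread within the nanozyme group differed by gene. The coefficient of variation over the 3 nanozyme lungs was 114% for F10, 95.0% for Plau, 87.8% for Procr and 57.8% for Plaur. It was 8.42% for Tfpi and 12.2% for Plat. Among normal lungs it was 24.0% or less for every one of the 9 genes. Among model lungs it was 30.7% to 44.5% for F3, F10, Thbd and Procr and at most 14.1% for the others. Model replicate 2 was the highest model library for F3, F10 and Procr and the lowest for Thbd, Tfpi, Plau and Plat.

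Profiles were compared by the root mean square difference of log2(FPKM + 1) over the 9 libraries, after centring each gene on its own mean. Among the 9 genes, Plau and Plaur were the closest pair at 0.24, and F10 and Thbd the most distant at 2.85. Of all genes tested with an annotated symbol, Relb lay closest to Plaur (0.09), with Tcirg1 (0.10) and Cxcl12 (0.12) next. For Plau these were Lrg1 (0.15), Nfkbiz (0.16) and Litaf (0.16). For F10 they were Fpr2 (0.18), Hk3 (0.22) and Ifi204 (0.24), and Fpr2 was the 1 gene within 0.2. Procr had Ass1 (0.19), Tifa (0.21) and Chl1 (0.23). Thbd had Scn7a (0.12), Hmcn1 (0.13) and Kif26a (0.13), and F3 had Abcc1 (0.15), Anxa1 (0.17) and Krt18 (0.18). F13a1 had no gene within 0.2, and its nearest were Hmmr (0.21), Ndc80 (0.21) and Ckap2 (0.22). Tfpi and Plat varied little, so that 699 and 353 genes lay within 0.2 of them, with Scml4 (0.08), Ctc1 (0.08) and Mrtfa (0.08) nearest to Tfpi and Tpp2 (0.11), D16Ertd472e (0.11) and Mbtps2 (0.14) nearest to Plat. These distances are descriptions over libraries that share the 3 groups.

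A list of 42 other coagulation and fibrinolysis genes was read in the same fit. Of these, 23 did not pass the filter on low values, among them prothrombin (F2), the fibrinogen chains (Fga, Fgb and Fgg) and antithrombin (Serpinc1), which the liver makes. Plg, encoding plasminogen, was listed at 0 in all 9 libraries. Of the 19 tested, 5 rose and 2 fell in model lung relative to normal lung, 7 in all, beside 17.4%, 22.7% and 40.1% of all genes. The count of this list was thus near that of all genes. The median log2 change over the 19 was 0.10. Without nanozyme replicate 2 in the fit, 6 rose and 5 fell, beside 18.9% and 26.4% of all genes, 45.3% in all.

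**Figure D4:**
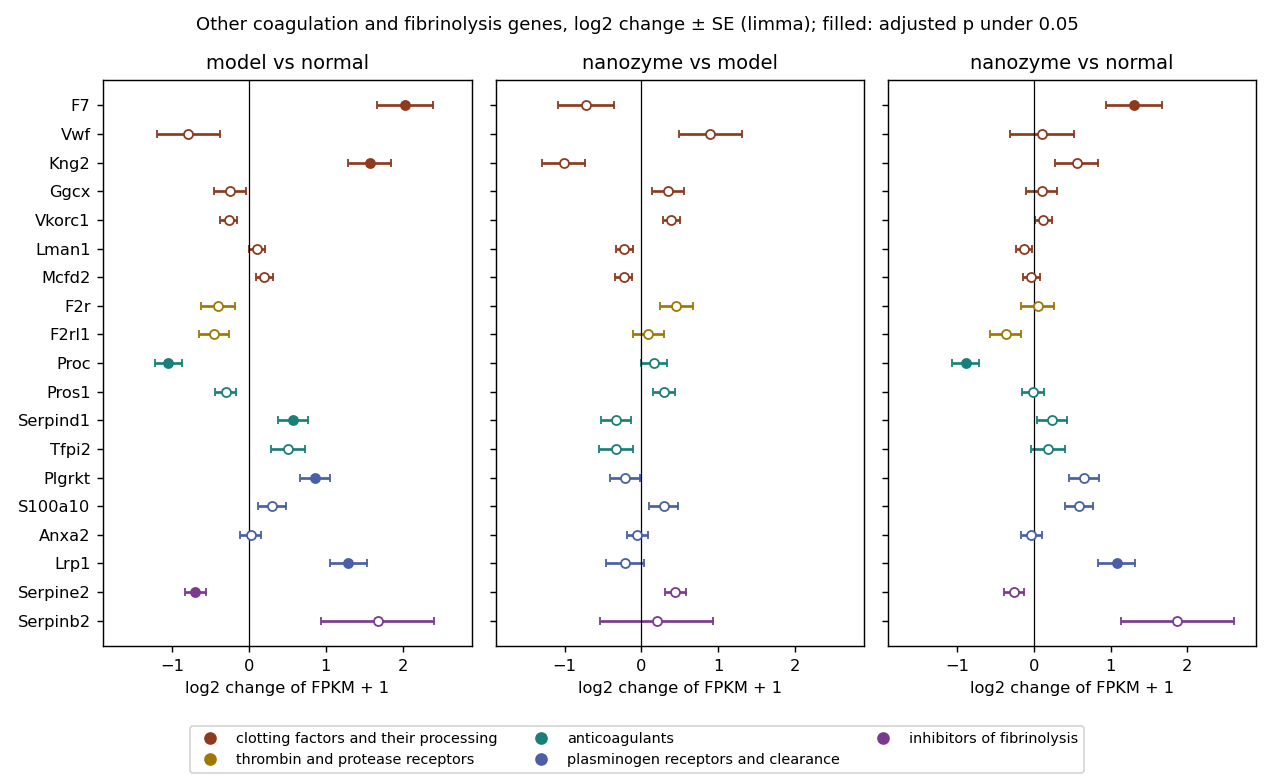
Log2 change of FPKM + 1 with SE (horizontal axes) for the 19 other coagulation and fibrinolysis genes tested, coloured by role and filled where the adjusted p was under 0.05. In model vs normal 5 are filled to the right of 0 and 2 to the left; in nanozyme vs model 0 are filled.

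Besides F7, the clotting gene list held Kng2, a kininogen gene with a close relative and an overlapping pseudogene, so its value is uncertain. It was higher in model lung (2.20 ± 0.42 against 0.0715 ± 0.0692 FPKM in normal lung, SD, n = 3; log2 change 1.57 ± 0.28, adjusted p = 0.00381). Kng2 reached 1 FPKM only in the model libraries and nanozyme replicate 2, so the filter favours a call of higher in model lung. Vwf, encoding the platelet-binding von Willebrand factor of endothelium, was at 29.5, 17.7 and 37.7 FPKM in model lungs, against 47.3, 47.3 and 47.9 FPKM in normal lungs. It did not pass (-0.79 ± 0.41, adjusted p = 0.158). In nanozyme lungs Vwf was at 85.2, 25.7 and 61.3 FPKM, and it was not called against either group.

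Of the thrombin and protease receptors, F2r, the main thrombin receptor, and F2rl1 were tested, and neither passed in any of the 3 comparisons. F2r was at 43.0 ± 11.3 FPKM in model and 56.1 ± 3.20 FPKM in normal lungs (SD, n = 3; -0.41 ± 0.22, adjusted p = 0.169). Among the other anticoagulants, Proc, encoding protein C, fell to 0.243 ± 0.138 FPKM in model lung, against 1.59 ± 0.445 FPKM in normal lung (-1.05 ± 0.17, adjusted p = 0.00291). Proc reached 1 FPKM in normal libraries only and so passed the filter through them. That selection favours a call of lower against normal lung. Serpind1, encoding heparin cofactor II, rose (0.57 ± 0.19, adjusted p = 0.0461), although its groups overlapped. Pros1, encoding the protein C cofactor protein S, did not pass (-0.31 ± 0.14, adjusted p = 0.118).

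Among genes that restrain fibrinolysis, Serpine2, an inhibitor of thrombin and plasminogen activators, fell (-0.70 ± 0.14, adjusted p = 0.00539). Serpinb2, encoding the inhibitor PAI-2, was at 1.46, 5.57 and 2.26 FPKM in model lungs, against 0.0544, 0 and 0.540 FPKM in normal lungs. These groups did not overlap, with the model libraries higher, but the change did not pass (1.67 ± 0.74, adjusted p = 0.101). Plgrkt, a plasminogen receptor, rose (0.87 ± 0.20, adjusted p = 0.00974), as did Lrp1, which clears activator and inhibitor complexes (1.29 ± 0.24, adjusted p = 0.00459). S100a10 and Anxa2, which form a plasminogen-binding complex at cell surfaces, did not pass (adjusted p = 0.227 and 0.925).

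Limma called 0 of the 19 other genes between nanozyme and model lung, with 3 at an unadjusted p under 0.05. Without replicate 2 it called 3 higher and 2 lower, beside 12.5% and 9.64% of all genes. The higher ones were Vwf, Vkorc1, which recycles vitamin K for clotting factor synthesis, and Serpine2 (adjusted p = 0.0131, 0.0141 and 0.0292). The lower ones were F7 and Kng2 (adjusted p = 0.00359 and 0.00244). Of the libraries then left, Kng2 reached 1 FPKM in the model ones only, so the filter favours its call of lower. Serpinb2 reached 15.1 FPKM in nanozyme replicate 1, against 1.27 and 1.18 FPKM in nanozyme replicates 2 and 3. It was not called against model (adjusted p = 0.891) or normal lung (adjusted p = 0.127).

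Between nanozyme and normal lung, F7 (1.304 ± 0.36, adjusted p = 0.0485) and Lrp1 (1.08 ± 0.24, adjusted p = 0.0228) were higher and Proc was lower (-0.89 ± 0.17, adjusted p = 0.0136). Proc was at 0.310, 0.296 and 0.565 FPKM in nanozyme lungs, against 2.10, 1.31 and 1.36 FPKM in normal lungs, and so lay below normal in replicate 2 and in the others alike. Its pass through the filter rested on the normal libraries alone, which favours this call. These 3 of 19 stand beside 13.9% of all genes. Without nanozyme replicate 2, 2 were higher and 1 lower, F7 at 0.82 ± 0.18 (adjusted p = 0.0240), Lrp1 at 1.06 ± 0.28 (adjusted p = 0.0466) and Proc at -0.84 ± 0.19 (adjusted p = 0.0277), beside 13.6% of all genes. Without normal replicate 1 limma called 0 of the 19, and without normal replicate 3 it called 1. Calls fell over all genes too, from 1220 higher and 800 lower. They were 627 and 168 without normal replicate 1, and 600 and 148 without normal replicate 3.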

How the data were processed

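Lung messenger RNA of 9 mice was measured by RNA sequencing. The submitters' processing notes name HISAT2 and the build GRCm38. The gene annotation used, the quantification tool, its strand setting and any filter are not given in the sources used here. The authors deposited 1 table of FPKM values with 1 column per library. Depth is unknown. Column sums ran from 443746 to 519772 FPKM, and low values gave no whole-read steps: the fullest bin of their ratios held 9.57%.

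Testing took in the 14540 of 25526 genes that reached an FPKM of 1 in 3 or more libraries. They were tested on log2(FPKM + 1) with limma 3.58.1 in R 4.3.3. All 9 libraries entered 1 fit with 1 coefficient per group, and p-values come from moderated statistics with an intensity trend, two-sided, adjusted by Benjamini-Hochberg over all tested genes in each of 3 comparisons. A gene was called at an adjusted p under 0.05. An exact permutation test of 3 against 3 cannot go below p = 0.10, so none was run. The procedure was tested on simulated data. The 9 genes, the gene lists and the tests were chosen with earlier results of these data known. Any tested gene of the list of other coagulation genes could be named, and for each of the 9 genes the 3 nearest profiles. Not every gene of these pathways is reported here. Group values are mean ± SD. Gene positions are from GENCODE vM21 on GRCm38, and upstream sequences from RefSeq (GRCm38.p6). No batch is labelled. Figures used matplotlib 3.10.9. Alternatives were another pseudocount, other filters, 4 other scalings, 2-group fits, no intensity trend, a replicate block and leaving out each library in turn.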

Additional observations from a re-analysis of the deposited data

How the results depend on the processing

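Among the 10 alternatives other than left-out libraries, the count of the 9 genes called changed by over 1.5 times in 1 setting: with only the groups compared in the fit, nanozyme vs normal gave 1 instead of 3. A filter at a mean FPKM of at least 5 gave 4 and 1 of the other coagulation genes in model vs normal and nanozyme vs normal, instead of 7 and 3, and 1285 genes in all instead of 2020 in nanozyme vs normal; fewer genes are tested there. Equal column sums gave 5 of the other coagulation genes in nanozyme vs normal. With no filter 4 genes were called in nanozyme vs model, instead of 0. Leaving out single libraries gave 5 to 8 of the 9 genes in model vs normal, 0 to 7 in nanozyme vs model and 0 to 4 in nanozyme vs normal. Over all genes the counts were 3836 to 6590, 0 to 3216 and 748 to 2258, and for the other coagulation genes 6 to 11, 0 to 5 and 0 to 3. The 7 in nanozyme vs model came without nanozyme replicate 2, and the 0 in nanozyme vs normal without normal replicate 1 or 3. Without normal replicate 3, 5 of the 9 genes were called in model vs normal. The change of F3 in nanozyme vs normal ranged from -0.32 to 0.021 when single libraries were left out, turning sign without normal replicate 1, and no other change of the 9 genes turned its sign. The cause of these shifts was not tested. In model vs normal, the median over all genes shifted by 0.11 with median-of-ratios scaling and by -0.11 when the 100 most abundant genes were left out of the column sums. The higher share of calls there was 43.4%, becoming 53.6% and 32.9%, and 54.2% with equal column sums. In nanozyme vs normal it was 60.4%, with 70.4% for equal column sums, 46.8% with quantile normalization and 47.3% without the 100 most abundant genes. Correlations across genes between the deviations of same-numbered libraries ran from -0.33 to 0.23, and in nanozyme vs model they were 0.086, 0.23 and 0.13. Those between differently numbered libraries ran from -0.36 to 0.38. With 3 libraries per group this check cannot settle whether the numbers pair the mice. With a replicate block, 7 of the 9 genes were called in model vs normal, 0 in nanozyme vs model and 3 in nanozyme vs normal. Over all genes the counts were then 5628, 0 and 1734, and over the other coagulation genes 7, 0 and 4; F3 in model vs normal had an adjusted p of 0.0620. Depth is unknown, so counting error cannot be given for low values such as Proc and Kng2.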
